A study of Arabidopsis thaliana with 8 samples.

Results

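The genes sks15 (AT4G37160) and sks16 (AT2G23630) encode SKU5-similar proteins, and the RefSeq gene table lists them as SKU5 similar 15 and SKU5 similar 16. They were followed here across 4 groups of Arabidopsis thaliana arrays. Each gene was measured by 1 probe set that the array annotation assigns to a single gene. They are 2 of 13286 genes with such a probe set. Roots and protoplasts of wild-type (WT) and of hira plants made up the groups, with 2 Affymetrix arrays each. Protoplasts are cells freed from their walls by enzymes, and the study was set up to learn what hira does to the loss of differentiation that follows this step. HIRA is a histone chaperone that places the variant histone H3.3 into chromatin outside DNA replication. The labels name the genotype only as hira, with no allele, and give no plant age. Seeds of all groups were kept at 4 °C for 4 days and roots grew on vertical MS plates. Enzyme digestion is listed as the treatment of every sample, so whether root samples met the enzymes is not settled by the labels. The labels leave it unsaid whether the 2 replicates of a group are different plants. The p-values below therefore cover the spread between these arrays alone, which may be technical.

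SKU5 is a glycoprotein that a lipid anchor holds at the outer face of the plasma membrane and in the wall, and roots of sku5 mutants skew to one side as they grow along a plate. Its family shares the cupredoxin domains of multicopper oxidases such as laccases and ascorbate oxidases, but lacks most of the residues that bind copper in those enzymes. Family members have been tied to directional cell expansion and to wall building. Both genes were chosen with their values on these 8 arrays known, among them a large difference between hira and WT roots. Their values are therefore a description, without a test.

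The values are log2 expression values from which each probe set's own median over the 8 arrays was taken off. A value of 0 is the middle of a gene's own 8 values, so differences between arrays can be read and expression levels cannot. Whether a value near 0 lies at the signal floor cannot be read either. Where it does, a difference from it is a lower bound and a small spread is no measure of precision. HIRA is not among the genes named by a single-gene probe set, and its transcript was not used to check the genotype labels. The gap between the 5′ and 3′ GAPDH controls, a sign of RNA integrity, had a mean of 0.04 ± 0.12 in hira roots and -0.09 ± 0.01 in hira protoplasts, against -2.22 ± 0.04 in WT roots and 0.62 ± 0.19 in WT protoplasts (5′ minus 3′, log2, SD, n = 2). For actin it was -0.25 ± 0.13, 0.26 ± 0.06, -1.81 ± 0.47 and 1.52 ± 0.32 in that order. The extremes were both in WT. In bulk samples fewer cells of a type and less RNA per cell cannot be told apart.

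sks15 was high in hira roots and near its own median almost everywhere else. Its centred log2 values were 6.03 and 5.60 in hira roots, 0.07 and -0.09 in WT roots, and -0.11 and -0.10 in the protoplasts of hira. In WT protoplasts they were 1.44 and -0.07. The hira root arrays lay above every other array, and the only other array clearly off the baseline was the first WT protoplast replicate. The order of the group means was hira roots, WT protoplasts, WT roots and hira protoplasts, and the last 3 did not separate beyond the spread in WT protoplasts (SD 1.06).

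**Figure D1:**
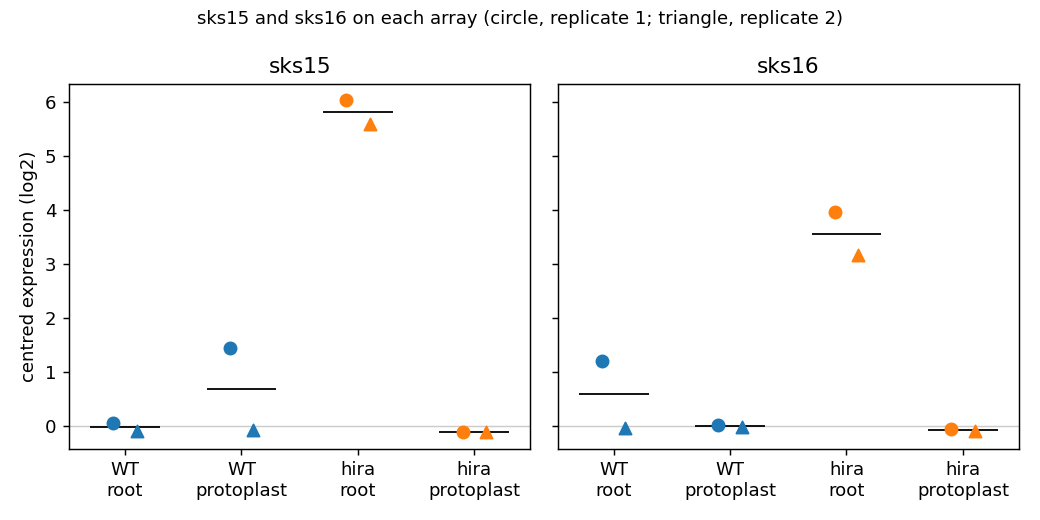
Centred log2 expression of sks15 (left) and sks16 (right) on each of the 8 arrays; circles are replicate 1, triangles replicate 2, and bars the mean of 2 arrays. Both hira root arrays (5.60 and 6.03 for sks15, 3.17 and 3.95 for sks16) lie above the other 6 arrays.

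sks16 followed the same order of extremes at a smaller size. Its centred log2 values were 3.95 and 3.17 in hira roots, 1.21 and -0.03 in WT roots, 0.01 and -0.01 in WT protoplasts, and -0.06 and -0.09 in hira protoplasts. Again both hira root arrays were above all others. Here the array off the baseline was the first WT root replicate, not a protoplast array. The 4 protoplast values ran from -0.09 to 0.01, while the WT root replicates differed by more than 1 log2 unit.

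In hira roots against WT roots sks15 was higher by 5.83 (log2, SE 0.51), a 56.9-fold difference, and sks16 by 2.97 (SE 0.48), a 7.84-fold difference. Where WT root values lie at the signal floor, which cannot be read here, these sizes are lower bounds. Over the 4 pairings of single arrays the difference ran from 5.53 to 6.13 for sks15 and from 1.96 to 3.98 for sks16, so the sks16 value depends more on which WT root array is used. It was 3.59 without WT root replicate 1 and 2.35 without WT root replicate 2. The RNA control gaps given above also differ between these groups. Their part in hira against WT root differences, here and below, was not tested.

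Between hira protoplasts and hira roots, where both control gaps differed far less, the values were lower in protoplasts for both genes. The log2 difference was -5.92 (SE 0.51) for sks15 and -3.64 (SE 0.48) for sks16. Single pairings of arrays ranged from -6.14 to -5.70 for sks15 and from -4.05 to -3.23 for sks16, so no pairing brought the groups together. Fitted to the hira arrays alone, with no WT array in the estimate of spread, the SE was 0.19 for sks15 and 0.34 for sks16. This SE also draws on the hira protoplast spread (SD 0.005 for sks15 and 0.022 for sks16). If those values lie at the signal floor, that spread is no measure of precision.

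The same step in WT gave small values of opposite sign. RNA control gaps lay furthest apart between these groups, and their part in WT protoplast against root differences, here and below, was not tested. The log2 difference of WT protoplasts from WT roots was 0.70 (SE 0.51) for sks15 and -0.59 (SE 0.48) for sks16. Each rests on 1 array: without WT protoplast replicate 1 the sks15 value was -0.05, and 1.46 without replicate 2. For sks16 it was 0.03 without WT root replicate 1 and -1.21 without replicate 2. The groups overlapped for sks15, where a WT root array lay between the WT protoplast arrays, and for sks16, where both WT protoplast arrays lay between the WT root arrays.

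In protoplasts the values of the genotypes were close. Groups that both lie at the signal floor would be close in any case, and whether these do cannot be read. hira minus WT protoplasts was -0.79 (log2, SE 0.51) for sks15 and -0.08 (SE 0.48) for sks16. The sks15 value was -0.04 without WT protoplast replicate 1 and -1.55 without WT protoplast replicate 2, so it comes from the single raised array. The hira response to protoplast formation minus the WT response was -6.62 (SE 0.72) for sks15 and -3.05 (SE 0.67) for sks16. This difference shares its arrays with the comparisons above and adds no separate evidence. It was -5.87 for sks15 without WT protoplast replicate 1 and -2.43 for sks16 without WT root replicate 2.

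How far the hira root arrays stood apart can be set against all probe sets. The lower hira root array exceeded the highest of the other 6 arrays by 4.16 log2 units for sks15, the 2nd largest margin of 22746 probe sets and the 1st of the 1551 with a gene symbol. For sks16 the margin was 1.96, rank 103 of all and 15 of those with a symbol. A margin above 0 was found for 3181 probe sets (14.0%), at least 1 for 509 (2.24%) and at least 2 for 98 (0.431%). A positive margin by itself was thus common, and sks15 and sks16 are members of a wider group of genes high in hira roots. The genes were chosen on this contrast, so the ranks describe them and support nothing further.

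**Figure D2:**
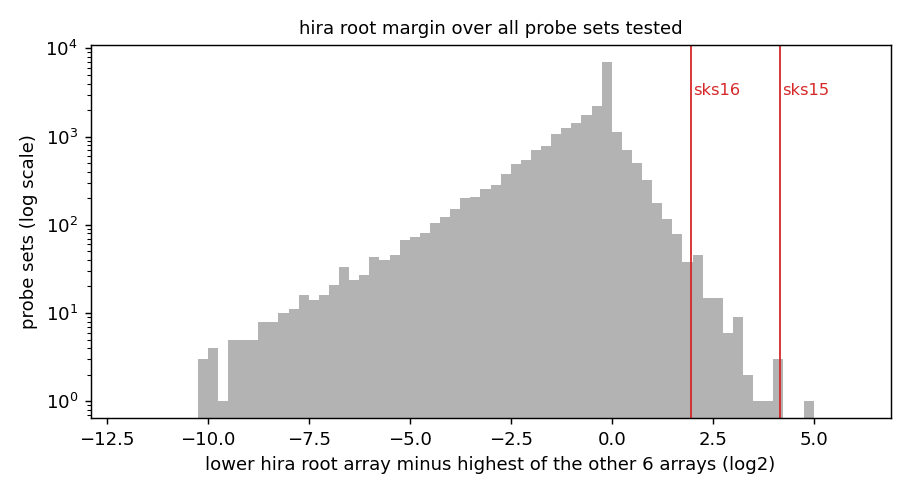
Number of probe sets (log scale) by the margin of the lower hira root array over the highest of the other 6 arrays (log2). Lines mark sks16 at 1.96 and sks15 at 4.16, both in the right tail of 22746 probe sets.

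sks15 and sks16 resembled each other over the 8 arrays, with a root mean square difference of 1.3 log2 units and Pearson's r of 0.94. That r is set largely by the hira root arrays, and the points share groups. The gap in size was mostly in hira roots. Their difference between hira and WT roots was 2.86 log2 units larger for sks15. Outside hira roots the 6 values ran from -0.11 to 1.44 for sks15 and from -0.09 to 1.21 for sks16, but on different arrays.

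Of 19 listed SKU5-family loci 4 had a single-gene probe set: sks15, sks16, SKU5 itself (AT4G12420) and sks18 (AT1G75790). The other loci are not analysed here. SKU5 and sks18 were named by family and not by their values, so they were tested in limma's fit across all probe sets. The call rule was a Benjamini-Hochberg adjusted p under 0.05.

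SKU5 was lower in protoplasts of both genotypes. Its centred log2 values were 1.28 and 0.58 in WT roots, 2.51 and 2.38 in hira roots, -1.25 and -1.79 in WT protoplasts, and -0.80 and -0.58 in hira protoplasts. Root and protoplast arrays did not overlap in either genotype, and hira roots were the highest group, as for sks15 and sks16. SKU5 fell by 2.45 (log2, SE 0.30, limma adjusted p = 0.00699) in WT protoplasts and fell by 3.14 (SE 0.30, adjusted p = 0.00442) in hira protoplasts. The WT fall missed the threshold when the WT arrays were fitted alone (adjusted p = 0.0654; range over its alternatives 0.00175 to 0.0654). In hira the call held under all 13 alternatives.

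In roots SKU5 was higher in hira by 1.51 (log2, SE 0.30), at the edge of the threshold (limma adjusted p = 0.0492). That call was lost under 11 of 13 alternatives, with adjusted p from 0.0255 to 0.214. It was kept without WT root replicate 1 (0.0333) and among probe sets with an SD of at least 0.2 (0.0255), and it was lost with quantile normalization (0.214) and with the replicate number as a block (0.0697). Leaving out any other array ended it, with WT root replicate 2 giving 0.117, each WT protoplast replicate 0.0666, hira root replicates 1 and 2 0.139 and 0.137, and each hira protoplast replicate 0.112. In protoplasts SKU5 differed by 0.83 (hira minus WT, SE 0.30, adjusted p = 0.147). The hira minus WT response was -0.69 (SE 0.42, adjusted p = 0.341), beside -6.62 for sks15.

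sks18 stayed within 0.14 log2 units over all 8 arrays and passed in no comparison, with log2 differences from -0.10 to 0.07. Its adjusted p values ran from 0.153 to 1. Beyond sks15 and sks16, the family thus gave 1 called gene of 2, SKU5, in WT protoplasts against roots (25.6% of all probe sets called), in hira protoplasts against roots (24.2%) and in hira against WT roots (9.19%). It gave 0 of 2 between the protoplasts (8.29% called) and in the difference of responses (4.87% called) by limma. At an unadjusted p under 0.05 these counts were 2 and 0. With 2 genes, such counts do not stand apart from the background.

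**Figure D3:**
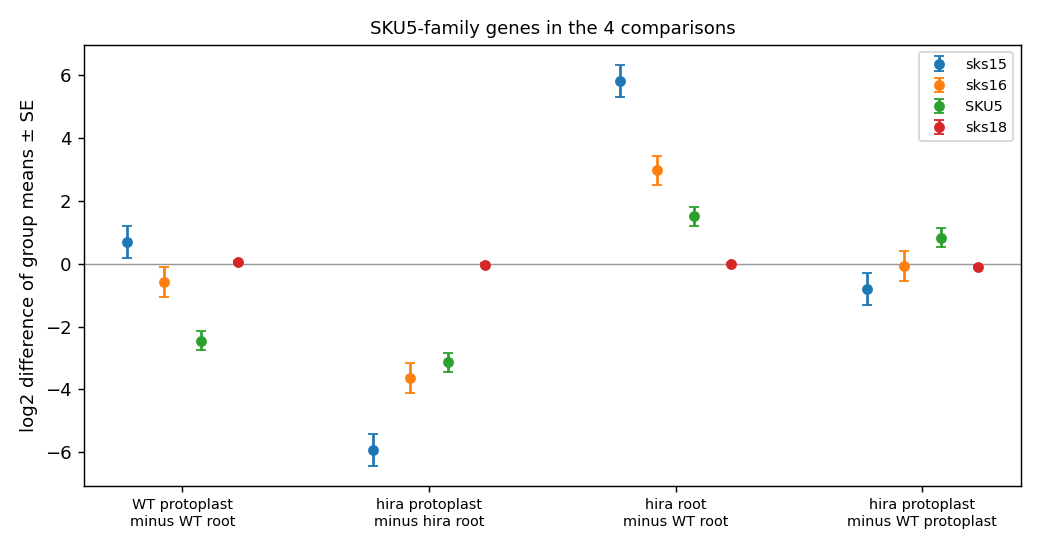
Log2 differences of group means with the SE of the limma fit for sks15, sks16, SKU5 and sks18 in 4 comparisons (n = 2 arrays per group). In hira roots against WT roots the values step down from 5.83 for sks15 to 2.97 for sks16 and 1.51 for SKU5, while sks18 stays near 0, and only SKU5 is clearly lower in WT protoplasts than in WT roots.

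Multicopper oxidases outside the SKU5 family were thinly covered. Of 22 listed laccases, ascorbate oxidases and LOW PHOSPHATE ROOT oxidases 6 were measured. None was called in hira against WT roots by limma (1 at an unadjusted p under 0.05; 9.19% of all probe sets called), so the count does not stand apart from the background. The list had a median log2 difference of -0.72 against -0.004 over all probe sets. Their summed centred value ran from -2.58 to -0.33 in hira roots and from 2.32 to 3.10 in WT roots. LPR2, a multicopper oxidase of the root response to low phosphate, rose in hira protoplasts against hira roots by 2.57 (log2, SE 0.48, adjusted p = 0.0229) and was the 1 called gene of 6 there (24.2% of all probe sets called); it is named because it was called. That call was lost under 4 of 13 alternatives, with adjusted p up to 0.114.

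The plantacyanin ARPN, a small blue copper protein of the wall and the 1 measured member of 13 listed phytocyanins, went the other way in roots. Its centred log2 values were 4.57 and 4.83 in WT roots against 1.92 and 1.45 in hira roots. It was lower in hira roots by -3.02 (log2, SE 0.46, adjusted p = 0.0285), a call lost under 8 of 13 alternatives (adjusted p up to 0.106). It fell by 6.66 (SE 0.46, adjusted p = 0.00205) in WT protoplasts against roots and fell by 3.799 (SE 0.46, adjusted p = 0.00753) in hira protoplasts, where sks15 was also lower. ARPN and sks15 thus lay in opposite directions between the roots of the genotypes. The shares of all probe sets called were 9.19% in roots, 25.6% in WT protoplasts against roots and 24.2% in hira protoplasts against roots.

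COB (COBRA), an anchored wall protein needed for oriented cell expansion, was the 1 measured gene of 10 on the primary wall list. Its centred log2 values were 1.37 and 1.68 in hira roots, 0.51 and 0.19 in WT roots, -0.50 and -0.19 in WT protoplasts, and -0.41 and -0.50 in hira protoplasts. It was highest in hira roots, with no overlap between the groups there. The log2 difference in roots was 1.17 (SE 0.18, adjusted p = 0.0294; lost under 6 of 13 alternatives, adjusted p up to 0.145). In hira protoplasts against hira roots COB fell by 1.98 (SE 0.18, adjusted p = 0.00409), as sks15 and sks16 were lower there. In WT protoplasts against WT roots COB was at -0.69 (SE 0.18, limma adjusted p = 0.0517), just over the threshold. Its hira minus WT response was -1.28 (SE 0.255, adjusted p = 0.0642) and was not called. Of 3 measured xylem and secondary wall genes out of 12, IRX15-L, a xylan synthesis gene, was higher in hira roots by 3.57 (SE 0.47, adjusted p = 0.0219; lost under 6 of 13 alternatives, adjusted p up to 0.132). It rose by 3.86 (SE 0.47, adjusted p = 0.00701) in WT protoplasts against WT roots, and its relative IRX15 by 1.82 (SE 0.23, adjusted p = 0.00793). IRX10, a gene of xylan backbone synthesis named after its values were seen, was at 1.14 and 0.92 in hira roots and -0.02 and 0.02 in WT roots, a log2 difference of 1.03 (SE 0.21, adjusted p = 0.0513). It fell by 1.71 (SE 0.21, adjusted p = 0.00782) in hira protoplasts against hira roots. In WT protoplasts sks15 was raised on 1 array only, whereas IRX15-L had its lowest values, -2.49 and -3.29, on the WT root arrays. On the xylem list limma called 1 of 3 genes in hira against WT roots (9.19% of all probe sets called). It called 2 of 3 in WT protoplasts against roots (25.6%) and 1 of 3 in hira protoplasts against roots (24.2%). With 3 genes here and 1 on the primary wall list, such counts do not stand apart from the background.

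Markers of cell types that root samples can hold were thinly covered: 2 of 10 root hair genes, 1 of 10 endodermis and Casparian strip genes, 1 of 6 green tissue genes and 0 of 4 root cap genes were measured. Centred values keep no level, so no marker can be read as absent. The root hair expansin genes EXPA7 and EXPA18 had a summed centred log2 value of 3.97 and 3.17 in hira roots, 0.18 and -3.33 in WT roots, -0.18 and 3.26 in WT protoplasts, and -2.79 and -4.42 in hira protoplasts. Both hira root arrays were high here too, but the second WT protoplast array was as high, where sks15 and sks16 were near 0. In roots neither gene passed, with EXPA7 at 2.55 (SE 0.82, adjusted p = 0.134) and EXPA18 at 2.59 (SE 0.90, adjusted p = 0.158). SGN3, a receptor kinase of the endodermal barrier, was at 1.54 and 2.02 in hira roots, 0.90 and -0.17 in WT roots, -1.0 and 0.17 in WT protoplasts, and -1.29 and -1.26 in hira protoplasts. Between hira and WT roots SGN3 was not called by limma either, at 1.41 (SE 0.54, adjusted p = 0.19), where 9.19% of all probe sets were. In hira protoplasts against hira roots, where sks15 and sks16 were also lower, EXPA18 fell by 4.32 (log2, SE 0.90, adjusted p = 0.0299) and SGN3 fell by 3.06 (SE 0.54, adjusted p = 0.0192), both named because they were called. EXPA7 was at -2.85 (SE 0.82, adjusted p = 0.0677). In that comparison limma called 24.2% of all probe sets, so calls among so few genes do not stand apart from the background. The EXPA18 call was lost under 5 of 13 alternatives (adjusted p up to 0.146) and the SGN3 call under 4 of 13 (up to 0.0996). The photosynthesis gene RCA was at -3.01 and 0.62 in hira roots and between -1.91 and 0.40 elsewhere, so its hira root arrays disagreed where those of sks15 did not. The part of these cell types in the values of sks15 and sks16 was not tested.

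The genes with a symbol whose 8 values lay closest to those of sks15 were OCT1, an organic cation transporter gene (root mean square difference 1.27, Pearson's r 0.96), BHLH101, a bHLH factor of the iron deficiency response (1.29, r 0.93), sks16 (1.3, r 0.94), IQD19 (1.34, r 0.92) and BZIP61 (1.36, r 0.84). Without the limit to genes with a symbol, 18 other probe sets lay closer than OCT1. OCT1 stood at 3.12 and 4.05 in hira roots and between -0.03 and 0.09 on the other arrays. BHLH101 was at 4.90 and 2.44 in hira roots, a wider gap between replicates than in sks15. None of these 5 shared the raised first WT protoplast array of sks15.

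The genes nearest to sks16 lay closer to it, on a distance not scaled to range (4.05 log2 units for sks16 and 6.14 for sks15). They were IQD19 (root mean square difference 0.38, Pearson's r 0.97) and iqd33 (0.50, r 0.97), which encode calmodulin-binding IQ-domain proteins, the carboxypeptidase-like gene scpl40 (0.42, r 0.97), the flavonoid pathway gene CHIL (0.50, r 0.97) and the glutathione transferase gene GSTU23 (0.51, r 0.94). All 5 shared with sks16 a higher value on the first WT root array than on the second: 1.45 against -0.003 for IQD19, 0.81 against -0.007 for scpl40 and 1.54 against 0.002 for GSTU23. CHIL stood at 1.95 and 0.36 and iqd33 at 0.57 and 0.005 on these arrays. On the first WT root array sks16 and each of these genes lay part of the way toward their hira root values, while sks15 did not. These genes were picked for likeness to sks16 on the same arrays, so the choice favoured this sharing. In the set nearest to sks15, sks16, IQD19 and BZIP61 (3.28 against -0.075) were raised there too, while OCT1 and BHLH101 stayed near 0. Without the limit to genes with a symbol, 4 other probe sets lay closer to sks16 than IQD19. Closer than GSTU23 lay 30, which include those of the other nearest genes named above. These likenesses cover 8 arrays of 4 groups and are descriptions.

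**Figure D4:**
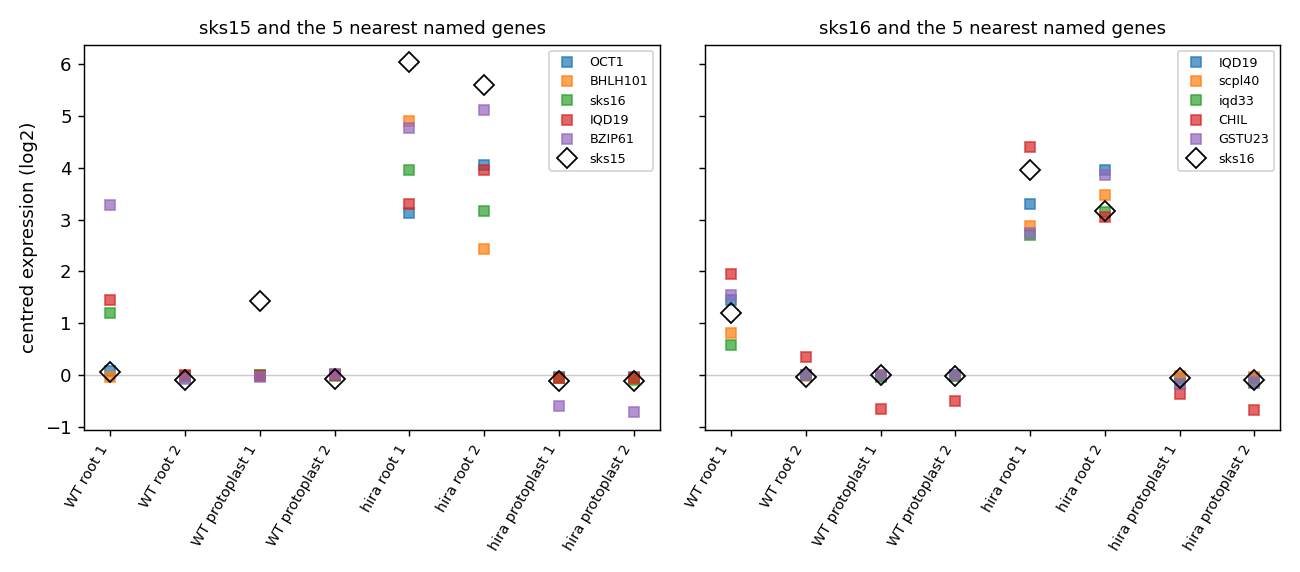
Centred log2 expression on each of the 8 arrays for sks15 (left) and sks16 (right) as open diamonds, with the 5 nearest genes that have a symbol as squares. The sks16 set is raised on the first WT root array (1.21 for sks16), while sks15 is near 0 there and raised on the first WT protoplast array (1.44).

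Genes beside sks15 and sks16 on the chromosome had smaller differences between hira and WT roots. sks15 and sks16 were chosen with a large root difference known, so most other genes would show less. The neighbour set, the 5 protein-coding genes on each side in the RefSeq gene order (TAIR10.1), was chosen after the values of sks15 and sks16 were known, by position alone. It had 5 measured genes around sks15 and 2 around sks16. No coordinates are given, since no build is named for the array annotation and the table served only for gene order. In hira against WT roots limma called 0 of 7 (9.19% of all probe sets called), and 1 had an unadjusted p under 0.05. With 7 genes this count does not stand apart from the background. Their log2 differences ran from -0.14 to 1.22 around sks15, with a median of 0.82, and from -0.001 to 0.998 around sks16. Over all probe sets the median was -0.004, with quartiles of -0.256 and 0.352. Both hira root arrays lay above the other 6 for AT4G37190, at 1.21 and 1.16 with the next array at 0.42. The same held for AT4G37110, at 2.25 and 1.38 with the next at 1.26. Such a margin above 0 was found for 14.0% of all probe sets. With 7 genes, these cases do not stand apart from that share. The nearest measured gene, AT4G37170, directly beside sks15, differed by 0.11 (SE 0.14, adjusted p = 0.785) where sks15 differed by 5.83. In each protoplast against root comparison 1 of 7 was called (25.6% of all probe sets in WT and 24.2% in hira), AT4G37110, which fell by 1.52 in WT (SE 0.36, adjusted p = 0.0393) and fell by 2.46 in hira (SE 0.36, adjusted p = 0.0117). The WT call was lost under 9 of 13 alternatives (adjusted p up to 0.128) and the hira call under 2 of 13 (up to 0.0724).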

How the data were processed

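The deposited values came from GCRMA, per the submitters' processing notes, and were read as log2; the version and log base are not given in the sources used here. They are centred: each probe set's median over the 8 arrays was 0 within 5e-07. Each array carried biotin-labelled RNA, per the labels. The 64 control probe sets were set aside, leaving 22746, with no filter on low values. Single-gene probe sets were named by gene ID through the RefSeq gene table, which matched 13436. Samples were grouped by title. limma 3.58.1 (lmFit, then eBayes; R 4.3.3) fitted 1 mean per group over the 8 arrays, with two-sided tests and Benjamini-Hochberg adjustment over all probe sets. The fit was tested on simulated data. The number of arrays limits the precision. The members and lists were chosen with earlier results of these data known. The genes named are sks15 and sks16, the measured SKU5 family, up to 2 called members per direction of each other list in hira against WT roots and WT protoplasts against roots, and the 5 genes with a symbol nearest to each member by root mean square difference. Outside this rule, LPR2, EXPA7, EXPA18, SGN3, IRX10, RCA and the chromosomal neighbours were named after values were seen. Alternatives were quantile normalization, a replicate block, the compared arrays alone, eBayes with trend and robust, an SD filter of 0.2 and leaving out each array.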

Additional observations from a re-analysis of the deposited data

Results flagged for a closer look

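Among the genes of the fixed lists and the chromosomal neighbours, limma's interaction test called 2 for the response to protoplast formation (4.87% of all probe sets called). Both are xylan synthesis genes, of 3 measured on the secondary wall list. It called 0 of 6 multicopper oxidases, 0 of 2 root hair genes and 0 of 7 neighbours. It also called 0 of 2 SKU5-family genes besides sks15 and sks16, and none on the lists with 1 measured gene. Over these lists and neighbours together, 2 calls do not stand apart from the background. WT roots and WT protoplasts, both part of this test, had the extreme RNA control gaps, whose part was not tested. Genes named for their likeness to sks15 or sks16 were chosen by their values and were not tested. IRX15-L had a hira minus WT response of -5.0 (log2, SE 0.66, adjusted p = 0.0332), with a rise of 3.86 in WT and a value of -1.14 (adjusted p = 0.158) in hira. IRX15 had a hira minus WT response of -2.23 (log2, SE 0.33, adjusted p = 0.0397), with a rise of 1.82 in WT and a value of -0.41 (adjusted p = 0.285) in hira. The call held under 5 of 12 alternatives for IRX15-L and 2 of 12 for IRX15, with adjusted p up to 0.125 and 0.135.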

How the results depend on the processing

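The differences of sks15 and sks16 moved by less than the residual SD under quantile normalization; the replicate block, the compared arrays alone and the SD filter cannot change a difference of group means in this balanced design. With single arrays left out, sks15 ran from -0.05 to 1.46 in WT protoplasts against roots, from -1.55 to -0.042 between protoplasts and from -7.38 to -5.87 in the difference of responses. For sks16 the ranges were -1.21 to 0.029 in WT protoplasts against roots, 2.35 to 3.59 in roots and -3.67 to -2.43 in the difference. The count of SKU5 and sks18 called in roots, 1, was 0 with quantile normalization, the replicate block, trend and robust, and the root arrays alone (1 at an unadjusted p under 0.05 in each), and 0 to 1 with single arrays left out. In WT protoplasts against roots it was 0 with the WT arrays alone (1 unadjusted). Counts of probe sets called in WT protoplasts against roots were 2331 with these arrays alone and 3747 to 5377 with single arrays left out; in hira they were 1872 to 5628. In roots they were 1332 with quantile normalization, 1030 with the replicate block, 0 with the root arrays alone (limma; 4548 at an unadjusted p under 0.05) and 495 to 3085 with single arrays left out. Between protoplasts they were 789 with the block, 4773 with trend and robust, 695 alone and 139 to 1559 with single arrays left out. For the difference of responses they were 302 with the block, 610 with trend and robust and 142 to 2185 with single arrays left out. The causes were not tested. Replicate differences correlated between groups at r from -0.096 to 0.048 over probe sets. Resting on a single pair of arrays per group, this cannot tell whether samples with the same number shared a batch or plants.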
